A study of Mus musculus with 2 samples.

Results

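The guanylate-binding proteins (GBPs) and the immunity-related GTPases (IRGs) are the interferon-induced GTPases with which mouse cells attack microbes that live inside them. The genes described here are 10 named members of these families, 6 GBP genes (Gbp2, Gbp3, Gbp4, Gbp5, Gbp6 and Gbp7) and 4 IRG genes (Irgm1, Irgm2, Igtp and Iigp1). They were chosen by name and found on the arrays through the transcript accession of each probe, and they are 10 of 23786 genes with a named probe. Together they have 12 probes, 3 for Irgm1 and 1 for each of the others.

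RNA was measured in bone marrow-derived dendritic cells of C57BL/6J mice on 2 one-colour Agilent arrays, 1 labelled EGR1-deficient (the deficient-labelled array) and 1 labelled wild type (the WT array). Both samples are labelled male, and both were femoral marrow cells differentiated with 10 ng/ml GM-CSF, a growth factor for myeloid cells, and collected on day 6 with no further stimulus named in the labels. The sources used here give neither the age of the mice, nor the number of animals behind each RNA, nor the way EGR1 was removed. EGR1 is a zinc-finger transcription factor that cells make within minutes of many stimuli. With 1 array per group there is no replicate, so no difference below was tested, and every direction is that of these 2 arrays.

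GBPs and IRGs are made at low levels in resting cells and in large amounts after interferon gamma, which acts through its receptor and the JAK kinases, or after type I interferons, which act through a factor complex that holds STAT2 and IRF9. Both families gather on the membranes of vacuoles that hold parasites or bacteria. Among the IRGs, Irgm1, Irgm2 and Igtp (also called Irgm3) are regulators that protect the cell's own membranes, whereas Iigp1 (also called Irga6) is an effector that coats the vacuole. The GBPs help to open vacuoles and bacteria and so expose microbial DNA and lipopolysaccharide to inflammasomes, the platforms that activate inflammatory caspases.

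The control region through which interferons act is shown for 5 members that differ in what the arrays read: Gbp3, the GBP on chromosome 3 that was furthest apart, Gbp5, the member that was not lower, Gbp2, and the neighbouring genes Igtp and Irgm2. The windows run from 250 bases before to 50 bases after each gene's start and were taken from RefSeq, build GRCm38.p6, written 5′ to 3′ on the gene's own strand. Capitals mark matches, on either strand, to the core of the interferon-stimulated response element (ISRE) bound by IRF proteins, which is GAAA, 2 bases of any kind and GAAA, and to TTCNNNGAA, the gamma-activated sequence (GAS).
Gbp3 (chr3:142559794-142560093, plus strand): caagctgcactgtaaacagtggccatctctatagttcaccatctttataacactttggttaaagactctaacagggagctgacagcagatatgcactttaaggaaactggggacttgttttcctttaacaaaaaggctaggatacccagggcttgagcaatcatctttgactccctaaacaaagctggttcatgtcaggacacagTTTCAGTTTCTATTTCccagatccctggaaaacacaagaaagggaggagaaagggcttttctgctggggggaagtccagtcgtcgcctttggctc
Gbp5 (chr3:142496684-142496983, plus strand): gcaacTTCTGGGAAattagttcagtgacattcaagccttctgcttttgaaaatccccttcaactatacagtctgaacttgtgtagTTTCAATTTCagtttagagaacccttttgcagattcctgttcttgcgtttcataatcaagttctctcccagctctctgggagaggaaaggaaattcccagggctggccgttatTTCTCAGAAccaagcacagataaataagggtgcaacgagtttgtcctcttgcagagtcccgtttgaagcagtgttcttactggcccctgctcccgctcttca
Gbp2 (chr3:142620413-142620712, plus strand): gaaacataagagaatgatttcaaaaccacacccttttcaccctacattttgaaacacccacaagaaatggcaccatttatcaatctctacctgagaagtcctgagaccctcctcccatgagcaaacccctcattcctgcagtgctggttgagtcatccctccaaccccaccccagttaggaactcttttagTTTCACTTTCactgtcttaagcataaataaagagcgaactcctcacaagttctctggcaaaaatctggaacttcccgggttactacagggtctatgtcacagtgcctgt
Igtp (chr11:58199306-58199605, plus strand): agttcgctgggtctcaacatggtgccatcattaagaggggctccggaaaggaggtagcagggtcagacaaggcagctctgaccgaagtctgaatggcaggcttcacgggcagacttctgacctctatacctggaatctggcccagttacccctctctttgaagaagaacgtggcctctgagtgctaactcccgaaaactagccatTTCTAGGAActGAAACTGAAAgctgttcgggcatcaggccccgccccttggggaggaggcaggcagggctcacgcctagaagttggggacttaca
Irgm2 (chr11:58214727-58215026, plus strand): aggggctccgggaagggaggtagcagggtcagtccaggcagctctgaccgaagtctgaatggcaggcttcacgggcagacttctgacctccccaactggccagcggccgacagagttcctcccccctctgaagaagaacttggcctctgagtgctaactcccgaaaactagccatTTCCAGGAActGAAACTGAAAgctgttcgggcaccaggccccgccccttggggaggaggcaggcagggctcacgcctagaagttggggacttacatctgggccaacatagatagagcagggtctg
A window was found for 7 of the 10 members (Gbp2, Gbp3, Gbp5, Gbp7, Irgm1, Irgm2 and Igtp), in 8 windows because Gbp3 has a pair of starts. All 7 of these genes had a match to the ISRE core, against 3.44% of the 32851 windows in the table. The GAS letters occurred in 4 of the 7, namely Gbp5, Gbp7, Igtp and Irgm2, against 8.3% of all windows. In Igtp the GAS match lay 45 to 37 bases before the start and the ISRE match 34 to 25 bases before it, and in Irgm2 the same pair stood 75 to 67 and 64 to 55 bases before the start. In Gbp3 a pair of ISRE matches overlapped, between 45 and 30 bases before the start, and the second Gbp3 window held none. The EGR motif GCGNGGGCG was in none of the 8 windows and in 5.55% of all windows. A match describes the letters only and does not show that a factor binds there, and no match says only that these letters are not in the window.

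The deficient-labelled array had the higher Egr1 reading, so this reading does not bear out its label. Egr1 read 1212 on the deficient-labelled array and 379.7 on the WT array, while its relative Egr2 read 828 on the deficient-labelled array and 1245 on the WT array. The position of the 1 Egr1 probe relative to the removed part is unknown here, and a probe outside that part checks nothing. Xist, normally made in female cells, read 4559 on the deficient-labelled array and 3425 on the WT array, although both samples are labelled male. Of 7 probes of the Y-linked genes Ddx3y, Kdm5d, Uty and Eif2s3y, 6 cleared background on neither array and 1, of Eif2s3y, cleared it on both, at 27.1 on the deficient-labelled array and 25.6 on the WT array. Of 59305 non-control spots, 59.8% were well above background on the deficient-labelled array and 55.2% on the WT array. Levels below are processed intensities, the scanner program's final signal on a linear scale. Differences are in log2 units, as the deficient-labelled array minus WT, after each array was scaled to the 75th percentile of its non-control spots.

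The errors available were all technical. Repeated spots of 1 probe implied an SD of 0.08 for a difference, over 268 probes. For the 4 repeated probes with a signal under 100 it was 0.25. Probes of the same gene disagreed with a median SD of 0.18, over 4594 genes, and the root mean square of that SD was 0.31. Larger disagreements than the median were thus common. None of these covers the spread between cultures or mice.

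Of the 10 members, 9 were lower on the deficient-labelled array, with a median difference of -0.34 over all 10. The genes tested were the 13735 whose probe cleared background on both arrays. Their median difference was -0.05, and 57.4% of them lay below 0. All 12 member probes were well above background on both arrays, so no member was lost to the filter on dim probes. At 1.5-fold or more, 3 of the 10 members were lower and 0 were higher, where 4.18% of all genes were lower (574 genes) and 3.52% were higher (483 genes). At 2-fold no member was apart in either direction, where 1.0% of all genes were lower and 0.706% higher. The split of all genes at 1.5-fold depended on the scaling: 990 were lower and 289 higher when arrays were scaled to their median, 745 and 342 after loess, and 239 and 649 in the authors' series table.

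**Figure D1:**
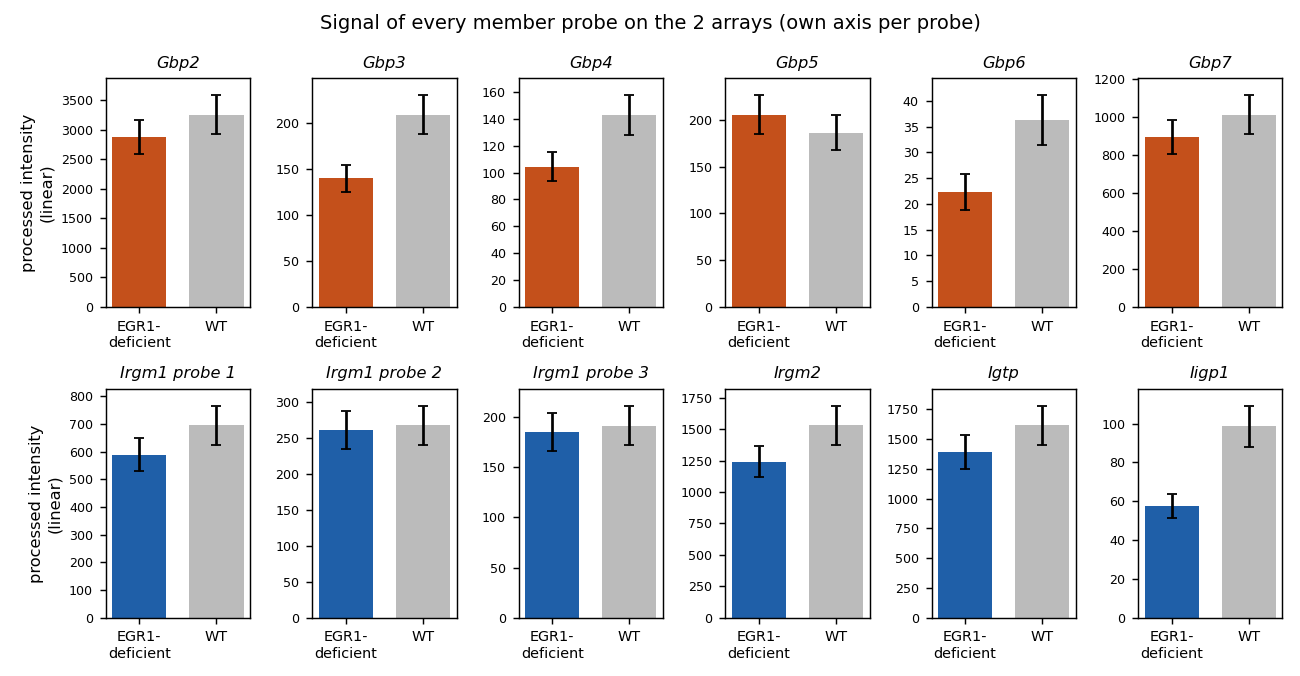
Processed intensity (linear, own axis from 0 for each probe) of the 12 member probes on the deficient-labelled array (coloured bar, orange for Gbp genes and blue for IRG genes) and on the WT array (grey bar). Error bars are the scanner program's own error of the single spot, so they show reading error only. Bars of the deficient-labelled array are shorter for every probe except that of Gbp5.

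Among the GBPs of chromosome 3, Gbp3 stood furthest apart. The Gbp3 probe read 140.1 on the deficient-labelled array and 209 on the WT array, 1.56-fold lower, a difference of -0.65. Of all genes tested, 3.11% lay as low or lower. Gbp2, whose protein is anchored to membranes by a lipid tail and gathers on Toxoplasma vacuoles in mouse cells, read 2875 on the deficient-labelled array and 3252 on the WT array. Its difference of -0.24 was larger in size than the 0.08 implied by repeated spots but close to the median of 0.18 by which probes of 1 gene disagree. It was smaller in size than the root mean square of that disagreement, 0.31, and 23.6% of all genes lay as low.

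Gbp7, one of the GBPs reported to limit mycobacteria and Listeria in mouse macrophages, gave nearly the same value as Gbp2. It read 895 on the deficient-labelled array and 1013 on the WT array, which gives a difference of -0.24, and 23.5% of all genes lay as low. Gbp5, which promotes NLRP3 inflammasome assembly in mouse macrophages, was the exception. Its probe read 205 on the deficient-labelled array and 186 on the WT array, which gives a difference of 0.07 that lies within the SD of repeated spots and turned to -0.04 when arrays were scaled to their median.

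Both GBP members of chromosome 5 were lower. Gbp4, reported to hold back the interferon regulator IRF7 in virus-infected cells, read 104 on the deficient-labelled array and 143 on the WT array, which gives a difference of -0.52, and 5.72% of all genes lay as low. Gbp6, also among the GBPs reported to act against mycobacteria and Listeria in mouse macrophages, was the dimmest probe and so the least certain. It read 22.3 on the deficient-labelled array and 36.2 on the WT array, when the faintest spots still called well above background read 13.3 and 16.3. That is 1.70-fold lower, a difference of -0.76, which came to -0.26 after normexp background correction.

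The IRGM regulators differed by similar, smaller amounts. Irgm2 read 1242 on the deficient-labelled array and 1530.0 on the WT array, which gives a difference of -0.37, and 12.2% of all genes lay as low. Igtp read 1393 on the deficient-labelled array and 1617 on the WT array, which gives a difference of -0.28. Igtp and Irgm2, neighbours on chromosome 11 that share the paired GAS and ISRE letters printed above, had differences close to each other. A link between the letters, or the position, and the differences was not tested.

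Irgm1, which is needed for resistance to mycobacteria in mice, was the member measured more than once, and its probes disagreed on the size. The brightest probe read 589.5 on the deficient-labelled array and 695 on the WT array, which gives a difference of -0.30. A second probe read 262 on the deficient-labelled array and 268 on the WT array (-0.10), and the last read 185 on the deficient-labelled array and 191 on the WT array (-0.12). Of all genes tested, 43.2% and 40.6% lay as low as these other 2 probes, which is near the middle. The mean over the 3 probes was -0.17.

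Iigp1, the effector of the set, had the lowest difference of the 10. It read 57.6 on the deficient-labelled array and 98.6 on the WT array, 1.79-fold lower, a difference of -0.84, and 1.51% of all genes lay as low. After normexp the difference was -0.48. Iigp1 lies on chromosome 18, as does Egr1.

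Apart from Gbp5, members with dimmer probes had the larger differences. When all genes tested were split into 4 equal classes by mean signal, Gbp2, Gbp7, Irgm1, Irgm2 and Igtp fell in the brightest class and had differences between -0.37 and -0.24. In that class the median of all genes was -0.10 and their SD was 0.21. Within it, 6.61% of genes lay as low as Irgm2 and 21.8% as low as Gbp2. Gbp3, Gbp4 and Iigp1 fell in the next to dimmest class, where the median of all genes was -0.02 and the SD 0.40. Of the genes in that class, 1.63% lay as low as Iigp1, 3.58% as low as Gbp3 and 6.9% as low as Gbp4. Gbp6 fell in the dimmest class, whose median was 0.02 and SD 0.50, and 4.6% of its genes lay as low. Gbp5, in the remaining class, lay above that class's median of -0.06. From the dimmest class to the brightest, 9.0%, 4.92%, 2.01% and 0.786% of genes were 1.5-fold or more lower, and 47.5%, 52.6%, 59.8% and 69.7% were below 0. Brightness was not tested as a source of the larger differences.

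**Figure D2:**
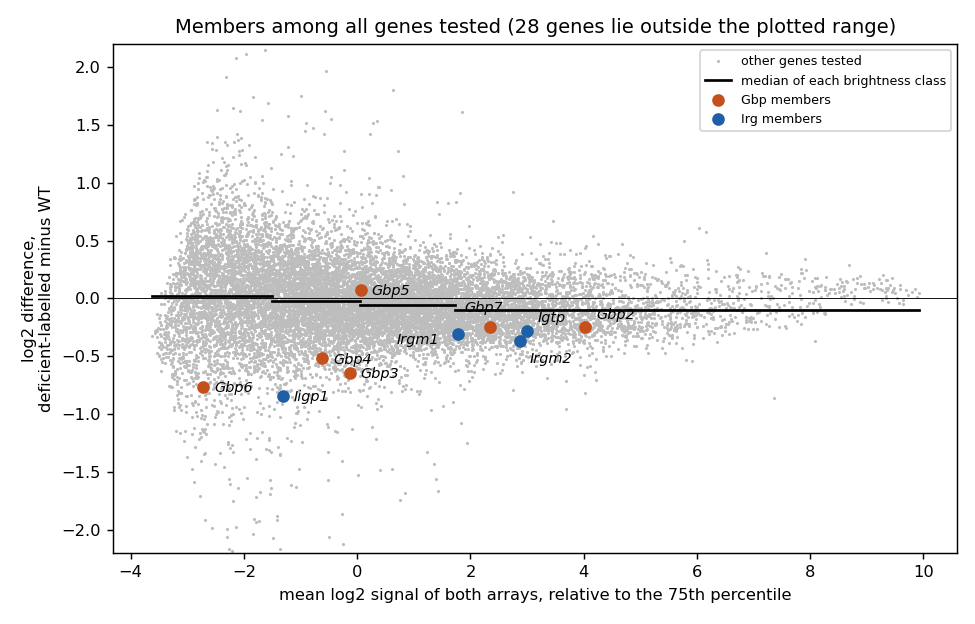
Log2 difference (deficient-labelled minus WT) of each of the 13735 genes tested against its mean log2 signal relative to the 75th percentile of each array. Orange points are the Gbp members, blue points the IRG members, grey points all other genes, and black bars the median of each brightness class. Members lie between -0.84 and 0.07, the dim ones lower than the bright ones, and 28 genes fall outside the plotted range of 2.2 log2 units either way.

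Most relatives outside the 10 were also lower. Of 15 further family genes with a named probe, 12 were well above background on both arrays. Of these, 10 were below 0 with a median of -0.25, where 57.4% of all genes tested were below 0. Gbp9 on chromosome 5 read 80.5 on the deficient-labelled array and 137 on the WT array (-0.84). The chromosome 18 gene Gm4951 (also called Ifgga2) was lower in both of its probes, at 132 on the deficient-labelled array against 220.4 on the WT array (-0.81), and at 61.6 against 114 (-0.95). Tgtp2, a close copy of Tgtp1, whose protein is an IRG effector, read 1161 on the deficient-labelled array and 1719 on the WT array (-0.63). These 3 genes were 1.5-fold or more lower, and 0 of the 12 were that much higher, where 4.18% of all genes were lower and 3.52% higher.

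Gbp10 (-0.44) and Gbp8 (-0.36, with another probe at -0.32) were also lower. So was Gm12250 (-0.32, another probe at -0.26), which encodes Irgb10, an IRG that with GBPs breaks open bacteria in mouse macrophages. Irgq gave opposite directions, with 1 probe at -0.17 and another at 0.36, and 9930111J21Rik2 differed by -0.09. Gm5431 and 9930111J21Rik1 (both -0.04, 9930111J21Rik1 with another probe at 0.06) and Gm12185 (0.02) lay within the SD of repeated spots. When each gene's probes were averaged, 8 of the 12 relatives were below 0, with a median of -0.19, where 56.4% of all genes were below 0. F830016B08Rik (also called Ifgga4) went the other way, at 9906 on the deficient-labelled array against 7411 on the WT array (0.35). Gbp2b, also called Gbp1, cleared background on the deficient-labelled array alone, at 18.2 against 16.6 on the WT array. That is 1.05-fold after scaling, with spot errors of 18.7% and 23.1%, so no direction can be read. Gm4841 and Irgc1 cleared background on neither array, and no probe was named for Tgtp1 or Gbp11. Several of these genes are near copies of each other, such as Tgtp1 and Tgtp2 or Gbp6 and Gbp10. Probe sequences were not used here, so signal from a near copy cannot be told apart.

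Arranged by chromosome, the GTPase genes had a lower median than the genes around them on each of the 4 chromosomes, though not gene by gene. On chromosome 5 all 5 measured GBPs were below 0, with a median of -0.52, against -0.02 for the 10 nearest other genes tested. On chromosome 3 the median was -0.24 over 4 GBPs and 0.06 over 10 neighbours, and on chromosome 11 it was -0.28 over 9 IRG genes and -0.02 over 21 neighbours. The chromosome 11 values pool genes at separate sites on that chromosome. On chromosome 18, which carries Egr1, Iigp1 and Gm4951 were low and F830016B08Rik high, with a median of -0.81 over these 3. The 10 neighbours there ranged from -0.78 to 0.99 with a median of 0.18, and all 332 genes tested on that chromosome had a median of -0.08. Neighbours were the nearest 5 tested genes on each side of every family gene, a choice made after the members' values were seen.

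**Figure D3:**
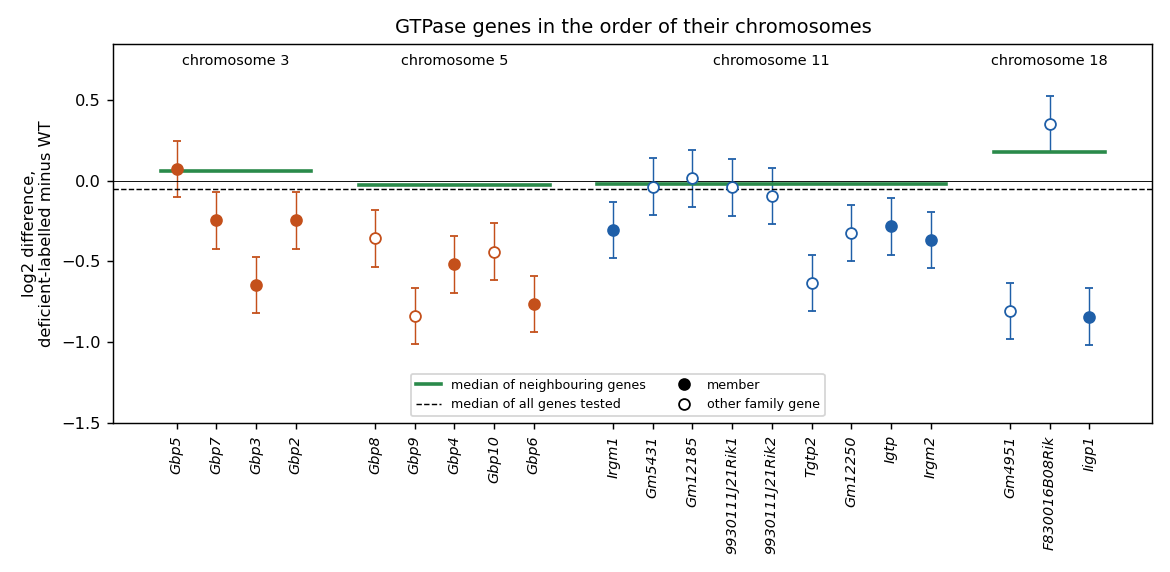
Log2 difference (deficient-labelled minus WT) of the 10 members (filled) and 11 other family genes (open) in their order along chromosomes 3, 5, 11 and 18, without distances. Error bars are 0.18, the median SD between probes of 1 gene, the green bars are the medians of neighbouring genes and the dashed line is the median of all genes tested. Chromosome 5 GBPs all lie under the line, while chromosome 11 and chromosome 18 hold genes on both sides.

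Upstream of the GTPases, the interferons themselves were mostly too dim to read. Ifng did not clear background on either array, at 3.21 on the deficient-labelled array and 3.24 on the WT array. Ifna2, Ifna4, Ifna5, Ifna12 and Ifne did not clear it either, and no probe was named for Ifnl2. Ifnb1, the first type I interferon that cells make on infection, was well above background on the WT array alone. It read 7.87 on the deficient-labelled array and 20.8 on the WT array, with spot errors of 35.5% and 18.5%. That is at least 1.63-fold lower before spot error is allowed for. The faintest spot called well above background on the WT array read 16.3, so the direction is uncertain. Ifna1 read 91.5 on the deficient-labelled array and 56.9 on the WT array (0.62), by 1 probe. Repeated probes with a signal under 100 implied an SD of 0.25 for a difference. Ifnl3 differed by 0.11. Il27, a cytokine that was listed with the interferons but is not one, differed by 0.01.

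Receptor and signalling genes were mostly lower too, with a smaller median than the members. Of 17 measured, 15 were below 0 with a median of -0.19, where 57.4% of all genes tested were below 0. Of the 17, 1 was 1.5-fold or more lower, as were 4.18% of all genes. The 1 gene was Socs3, which encodes a brake on cytokine receptors, at 161 on the deficient-labelled array and 276 on the WT array (-0.84). The kinase gene Jak1 read 622 on the deficient-labelled array and 873 on the WT array (-0.56), and Socs1, the main brake on interferon gamma signalling, differed by -0.38. The receptor chain gene Ifngr1 was at -0.33 and its partner Ifngr2 at -0.07. Irf9 differed by -0.23 and Irf1, which drives many GBPs, by -0.13. The Irf9 difference was of the size of those of Gbp2 and Igtp, and smaller than those of Gbp3, Gbp6 and Iigp1.

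Other interferon-stimulated genes were mostly lower as well. Of 28 measured, 26 were below 0 with a median of -0.27. Among all genes tested 57.4% were below 0, and 69.7% in the brightest class, whose median was -0.10. None of the 28 was 1.5-fold apart in either direction, where 4.18% of all genes were lower and 3.52% higher. The lowest were Rtp4 (-0.43), Slfn5 (-0.40), Ifi44 (-0.40), the nucleotide kinase gene Cmpk2 (-0.38) and Parp14 (-0.38). Other probes differed by -0.36 and -0.03 for Slfn5 and by -0.17 for Parp14. Isg15, the ubiquitin-like modifier, was above 0, at 4793 on the deficient-labelled array against 3951 on the WT array (0.21), as was Xaf1 (0.02). The GTPase gene Gvin1, of another, very large interferon-induced family, differed by -0.18. No probe was named for Mx1 or Mx2, which were listed with it.

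Genes known to respond to interferon gamma spanned a wide range, with 2 genes more than 2-fold apart in opposite directions. Of all genes tested, 1.0% were 2-fold or more lower and 0.706% higher. Of 18 measured, 15 were below 0 with a median of -0.22, where 57.4% of all genes tested were below 0. Batf2, a gene for a transcription factor induced in activated macrophages, read 97.8 on the deficient-labelled array and 206 on the WT array (-1.14), and the chemokine gene Cxcl9 differed by -0.62. Ido1, which encodes a tryptophan-degrading enzyme, went the other way, at 68.7 on the deficient-labelled array and 29.4 on the WT array (1.16). Batf2, Cxcl9 and Ido1 were each read by 1 probe, with a signal under 100 on 1 array or both. Repeated probes with a signal under 100 implied an SD of 0.25 for a difference, over 4 probes. The immunoproteasome gene Psmb8 was at -0.49 by its only probe. Nlrc5, the activator of MHC class I genes, read 936 on the deficient-labelled array and 1247 on the WT array in its brighter probe (-0.48), but 109.7 on the deficient-labelled array and 92.3 on the WT array in the other (0.18).

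Genes that work with the GTPases were nearer to the median of all genes. The autophagy-related proteins that place IRGs and GBPs on vacuoles, with their partners, gave a median of -0.06 over 14 genes. Of the 14, 10 were below 0, where 57.4% of all genes tested were. Map1lc3a (-0.33), Atg3 (-0.31), Map1lc3b (-0.29) and Trim21 (-0.25) were lowest, although another Map1lc3b probe differed by 0.00. The inflammasome genes that act after GBPs had a median of -0.16, with 8 of 9 below 0, against the same 57.4% of all genes. Gsdmd, the gene of the pore-forming protein gasdermin D, differed by -0.38 (another probe by -0.10), the caspase gene Casp4 by -0.28, the DNA sensor gene Aim2 by -0.23, Nlrp3 by -0.18 and Il18 by 0.15. No gene of either list was 1.5-fold apart, where 4.18% of all genes were lower and 3.52% higher.

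**Figure D4:**
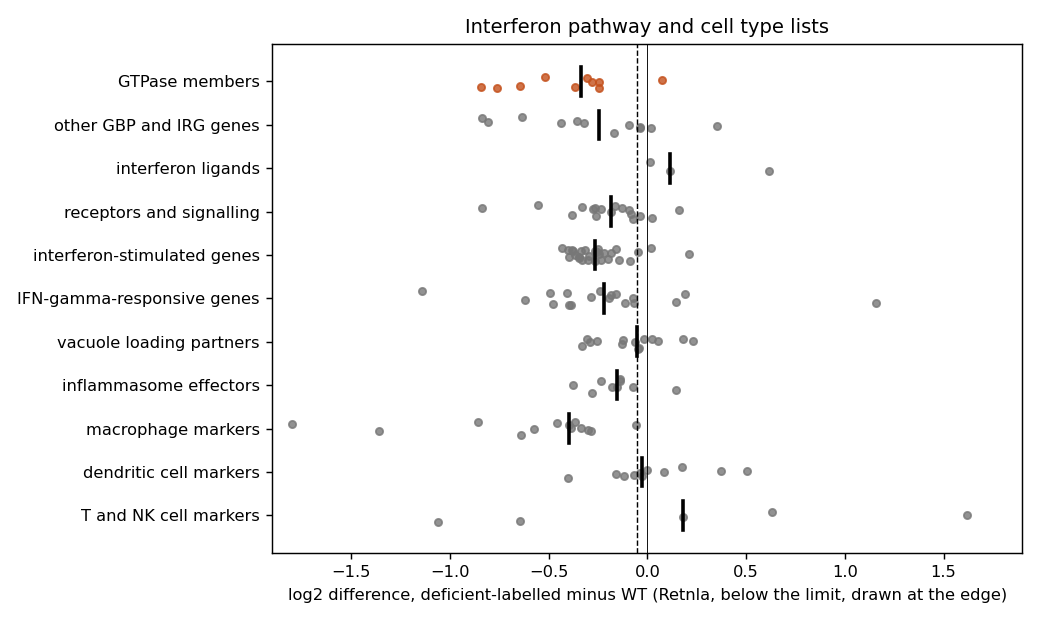
Log2 difference (deficient-labelled minus WT) of each gene well above background on both arrays, by list, with black bars for list medians and a dashed line for the median of all genes tested. Vertical scatter is random, and Retnla, a macrophage marker at -3.34, is drawn at the left edge. The interferon ligand list includes Il27, which is not an interferon. The GTPase members have a median of -0.34, and the interferon-stimulated genes -0.27.

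Markers of the labelled cells and of others they could hold were read on the same arrays. For the marker counts here and in the next paragraph, the share of all genes tested below 0 was 57.4%. In bulk RNA fewer cells of a type and less RNA per cell cannot be told apart. All 11 dendritic cell markers were well above background on both arrays, with a median difference of -0.03 and 7 below 0. They went in both directions. Flt3 (0.50) and Itgax (0.37, other probes 0.18 and 0.21) were highest, and Kmo (-0.40, another probe 0.15) was lowest. The summed signal of the 11, not scaled between arrays, was 51979 on the deficient-labelled array and 51977 on the WT array. Without H2-Ab1, the brightest, the sums were 30187 on the deficient-labelled array and 31114 on the WT array. A few bright genes make up most of such a sum, so it does not measure dendritic cell content. Macrophage markers lay in the direction of the GTPases: all 13 were well above background on both arrays and all 13 were below 0, with a median of -0.40 and a summed signal of 52614 on the deficient-labelled array and 79399 on the WT array. Chil3 carried most of that gap, at 23407 on the deficient-labelled array and 40560 on the WT array, and without it the sums were 29207 on the deficient-labelled array and 38838 on the WT array. Eosinophil, basophil and mast cell markers had 8 of 9 below 0 and a median of -0.47, with a summed signal of 5858 on the deficient-labelled array and 7612 on the WT array, and Fcer1a cleared background on neither.

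T and NK cells are the usual source of interferon gamma. Of their 11 measured markers, Cd8a, Gzmb and Ncr1 cleared background on neither array, and 5 did on both, with 2 of the 5 below 0, a median of 0.18 and a summed signal of 1361 on the deficient-labelled array and 861 on the WT array. The median came to 0.63 with the stricter filter on dim probes and to 0.52 in the authors' series table. Without Cd4, the brightest of the 5 (0.63), the sums were 429 on the deficient-labelled array and 285 on the WT array. The 5 went in both directions: Klrd1 read 226 on the deficient-labelled array and 70.3 on the WT array (1.62). Cd3e differed by 0.18, but by -0.08 in another probe. Il2rb read 28.3 on the deficient-labelled array and 56.5 on the WT array (-1.06), and Klrb1c differed by -0.65. Cd3g and Gzma were well above background on the deficient-labelled array alone, at least 2.29-fold and 1.57-fold higher before spot error is allowed for. Cd3d was so on the WT array alone, at least 1.73-fold lower in the same sense. All were dim, at 39.1, 26.9 and 22.0 where called, with spot errors of 12.2%, 15.1% and 20.5% there. Monocyte markers had a median of -0.11, neutrophil markers -0.08 and plasmacytoid markers -0.14. The 5 B cell markers gave no settled direction: the dim Cd79a, Cd79b and Ebf1 differed by -0.58, -1.09 and -1.15, and the brighter Ms4a1 and Pax5 by 0.45 and 0.47. Their median of -0.58 came to -0.15 after normexp, -0.12 without a filter on dim probes, 0.05 in the authors' series table and 0.46 with the stricter filter. The 3 stromal markers, all dim, had a median of 0.99, which came to 0.34 after normexp. The part of macrophages or of any other cell type in the GTPase differences was not tested.

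The direction of the members other than Gbp5 was the same under 8 other ways of processing the arrays, but not all of these re-estimated it. Both changes of the filter left each remaining member's value as it was, and averaging a gene's probes changed Irgm1 only. Median scaling and the series table each moved all members by the same amount. Only normexp, quantile and loess gave every member a newly estimated value. Members below 0 were 10 of 10 when arrays were scaled to their median, 7 of 8 in the authors' series table, 8 of 9 with the stricter filter on dim probes and 9 of 10 in the other 5 settings. Scaling to the median moved the median of all genes by -0.11 and the authors' series table moved it by 0.12. Taken against the median of all genes under the same processing, the median of the members lay between -0.28 and -0.22, and all but Gbp5 lay below it in every setting. The number 1.5-fold or more lower was less stable, at 4 with median scaling and 0 both after normexp and in the authors' series table, which lists neither Gbp6 nor Iigp1.

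**Figure D5:**
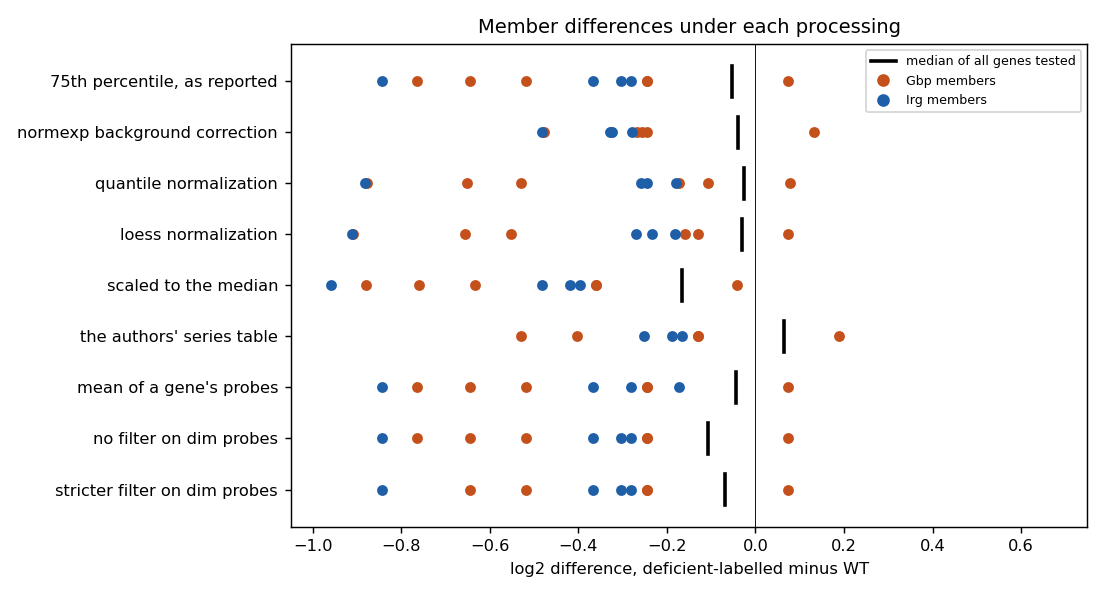
Log2 difference (deficient-labelled minus WT) of each member under each processing, with orange points for Gbp genes, blue points for IRG genes and a black bar for the median of all genes tested. Points and bar shift together with the scaling, and under each processing only Gbp5 lies to the right of the bar.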

How the data were processed

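Total RNA of the 2 samples was labelled with Cy3 and read on one-colour Agilent arrays, per the labels' protocols. The values used are processed intensities that the authors deposited in the scanner output. These come from Agilent Feature Extraction 12.1.0.3 per the file headers, whereas the submitters' processing notes name 11.5.1.1. The authors' series table holds the same intensities times 1 constant per array, 6.18 for EGR1-deficient and 5.97 for WT, of unstated origin, with no centring and column medians of 1205 and 1114.

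Each array's log2 intensities were set relative to its 75th percentile (191.6 for EGR1-deficient and 183.0 for WT). Spots of a probe were averaged, and 77 and 79 outlier spots were left out, none of them of a member. No non-control spot was saturated. Accessions were matched to a RefSeq table of GRCm38.p6, for names, chromosomes and order only because the array headers name mm9. This named 34565 probes and left 22038 unnamed. A gene is its probe of highest mean signal among those well above background on both arrays. An at-least fold sets the bright reading against the higher of the dim reading and the lowest signal well above background on that array. It does not allow for spot error. The named genes are all members with every probe, Egr1 and Egr2, up to 5 genes of each list with the largest difference and those read on 1 array only, while relatives and interferons are all accounted for. Genes named beyond that, such as Irf1, Irf9, Ifngr2, Isg15, Xaf1 and Il18, were chosen after their values were seen. Members and lists were chosen with earlier results of these data known. Array number limits the precision: with 1 per group no p-value was computed. Python 3.11.15, pandas 2.3.3, R 4.3.3 and limma 3.58.1 were used. Alternatives were normexp with an offset of 50, quantile, loess and median scaling, the series table, the mean of a gene's probes, no filter on dim probes, and a stricter filter at the 25th percentile of signal. Protein sequences were not used here, and some genes of the lists are not reported here by name.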

Additional observations from a re-analysis of the deposited data

How the results depend on the processing

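For values without a test, a difference counted as moved when it shifted by 0.18 log2 units or more, the median SD between probes of 1 gene. Under normexp, made from the median spot signal because the files used hold no mean signal, Gbp4 came to -0.33, Gbp6 to -0.26 and Iigp1 to -0.48. No other member moved by that much under any of the 8 alternatives, of which only normexp, quantile and loess re-estimated every member. No called value changed sign, and the list medians of the interferon pathway did not move. Members 1.5-fold or more lower numbered 0 under normexp and 0 in the authors' series table. Genes of the interferon ligand list, which includes Il27, were none below 0 as reported. They numbered 1 under normexp, 2 with median scaling and 5 without a filter on dim probes. Vacuole loading partners below 0 numbered 6 in the series table. All genes 1.5-fold or more lower and higher numbered 129 and 68 under normexp, 990 and 289 with median scaling, 1932 and 2527 without a filter, and 265 and 163 with the stricter filter, and 239 were lower in the series table. At 2-fold the lower and higher counts were 33 and 18 under normexp, 971 and 1280 without a filter and 52 and 32 with the stricter filter, which tested fewer genes, and 68 were lower in the series table. Apart from the filters, the cause was not tested. No paired analysis was possible because the labels give no replicate numbers and each group has 1 array.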

Other observations

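The ISRE letters were also counted over all genes tested that have a window, a description chosen after the members' windows were read. The 430 genes with them had a median difference of -0.10 and 60.9% below 0, against -0.05 and 57.5% for the 10498 genes without them. At 1.5-fold or more lower were 3.72% of the genes with the letters and 4.24% of those without. For GAS the medians were -0.04 over 946 genes with the letters and -0.06 over 9982 without, and for the EGR motif -0.07 over 1153 with and -0.05 over 9775 without. No gene is independent of the others on the same 2 arrays, so these are values and not a test.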
